A study of Homo sapiens with 6 samples.

Results

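The genes described here are 34 genes of sterol and fatty acid synthesis, taken by symbol from the 28395 gene IDs counted in A375 cells. A375 is an established human melanoma cell line with mutant BRAF. The members include 4 regulators: SREBF1 and SREBF2, which encode the sterol regulatory element-binding proteins (SREBPs), and SCAP and INSIG1, which act on SREBPs. The others are 20 genes of a sterol arm, 8 genes of a fatty acid arm and 2 targets of the liver X receptors (LXRs). All 34 were found, and all 34 passed the filter on low counts. The members were chosen by name, and no measured value enters the rule, but earlier results of these data were known when they were chosen. Cells were exposed for 72 h to 1 µM palbociclib, which inhibits the cell cycle kinases CDK4 and CDK6 and is called PD991 in the sample titles, or to 500 nM GSK3326595, which inhibits the arginine methyltransferase PRMT5 and is called CTX there. The control cells received DMSO at 0.01%. Each of the 3 groups has 2 libraries of ribosome-depleted total RNA from the same line, grown in RPMI medium, so no second line or untreated culture stands beside them. Nothing in the labels says that the replicates are separate cultures, and p-values therefore cover only the variation among these 6 libraries, part or all of which may be technical.

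Cells make sterols and fatty acids from cytosolic acetyl-CoA. The SREBPs are membrane-bound transcription factors that the escort protein SCAP carries from the endoplasmic reticulum to the Golgi for cleavage when sterols are scarce, while INSIG proteins hold SCAP back when sterols are plentiful. The product of SREBF2 mainly drives the sterol genes and the products of SREBF1 mainly drive the fatty acid genes, with overlap between them. The LXRs respond to oxidised sterols and switch on sterol export and SREBF1. Growing tumour cells use these pathways to make membrane lipid and prenyl groups.

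SREBPs bind sterol regulatory elements in promoters, usually beside sites for the partner factors NF-Y and Sp1, so the sequence before the start of the members was searched for these motifs. RefSeq promoter sequences of GRCh38.p14 were matched for 30 of the 34 members; ACAT2, FDFT1, SQLE and FASN were not matched. In the 250 bases before the annotated start, on both strands, the sterol regulatory element core TCACNCCAC, in which N is any base, was found in 1 of 30 members, in 0.875% of 27303 promoters of the same length and in 0.81% of the 12465 promoters of genes tested here. That member was SREBF2. The NF-Y box CCAAT was found in 19 of 30 members (63.3%), beside 33.0% of all promoters and 34.8% of those of tested genes. The Sp1 box GGGCGG was found in 28 of 30 (93.3%), beside 42.3% and 63.7%, and the E box CACGTG in 4 of 30 (13.3%), beside 6.49% and 8.38%. None of these motifs contains another of them. For ACLY, PMVK, SCAP, MVK, DHCR7, CYP51A1 and ELOVL6 the window lay within the gene's own span, before an internal annotated start. The sequences below are examples and were not picked by rank of difference. Each is written 5′ to 3′ on the strand of its gene, with the sterol regulatory element and the NF-Y boxes of either strand in capitals. Neither motif occurs in the windows of FADS1, FADS2 and CYP51A1, which fell more with palbociclib than SREBF2 and are not written out. SREBF2 (chr22:41832855-41833104, plus strand) carries both, SCD (chr10:100346983-100347232, plus strand) and HMGCS1 (chr5:43313413-43313662, minus strand) carry 2 NF-Y boxes each, INSIG1 (chr7:155297628-155297877, plus strand) carries 1, and AACS (chr12:125065185-125065434, plus strand) carries none in this window.
SREBF2: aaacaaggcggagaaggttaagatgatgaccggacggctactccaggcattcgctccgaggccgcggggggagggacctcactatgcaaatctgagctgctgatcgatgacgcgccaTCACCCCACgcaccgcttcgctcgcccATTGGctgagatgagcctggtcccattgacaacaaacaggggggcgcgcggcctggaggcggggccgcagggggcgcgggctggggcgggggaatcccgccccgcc
INSIG1: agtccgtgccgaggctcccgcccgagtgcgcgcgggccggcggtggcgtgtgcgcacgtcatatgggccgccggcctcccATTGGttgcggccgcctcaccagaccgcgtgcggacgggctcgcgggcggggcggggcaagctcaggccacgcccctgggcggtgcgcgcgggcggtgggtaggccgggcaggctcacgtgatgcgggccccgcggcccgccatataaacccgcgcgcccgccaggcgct
HMGCS1: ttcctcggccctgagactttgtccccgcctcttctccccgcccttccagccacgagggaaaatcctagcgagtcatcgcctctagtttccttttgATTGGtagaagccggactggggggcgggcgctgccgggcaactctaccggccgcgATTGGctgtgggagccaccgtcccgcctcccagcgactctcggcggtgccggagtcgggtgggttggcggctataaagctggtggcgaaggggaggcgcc
SCD: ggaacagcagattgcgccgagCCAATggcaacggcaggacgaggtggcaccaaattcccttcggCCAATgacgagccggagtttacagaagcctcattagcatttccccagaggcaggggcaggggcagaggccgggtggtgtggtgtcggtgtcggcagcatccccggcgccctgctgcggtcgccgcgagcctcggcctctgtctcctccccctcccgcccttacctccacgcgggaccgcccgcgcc
AACS: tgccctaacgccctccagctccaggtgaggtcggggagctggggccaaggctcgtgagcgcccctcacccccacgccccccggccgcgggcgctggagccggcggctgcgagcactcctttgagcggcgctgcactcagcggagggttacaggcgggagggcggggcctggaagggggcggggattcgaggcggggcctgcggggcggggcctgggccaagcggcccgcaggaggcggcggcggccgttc

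NF-Y boxes were not limited to members that fell. They were present in 8 of the 15 promoters of members lower with palbociclib than with DMSO and in 11 of the 14 promoters of members that were not called in that comparison. By arm, 13 of 17 sterol promoters and 3 of 7 fatty acid promoters held an NF-Y box. These matches describe the letters in 1 window and no binding was measured.

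Library totals ran from 16589153 to 20842099 counts, and the lowest count of any member in any library was 115 (TM7SF2). Of 8 melanocytic markers, 4 or 5 reached 1 CPM in each library, and their summed level was between 209 and 312 CPM. None of 5 blood cell markers reached 1 CPM in any library (sum at most 1.11 CPM). The 5 adipocyte and liver markers summed to 0.725 and 0.573 CPM with DMSO, 0.457 and 0.625 CPM with palbociclib and 1.81 and 2.33 CPM with GSK3326595, where the 1 that passed the filter, FABP4, was called higher on 26 and 36 counts and ADIPOQ was at 0 in every library. Sums were 132 to 184 CPM for 5 epithelial markers and 25.03 to 35.6 CPM for 6 fibroblast and endothelial markers. With palbociclib 1 of 3 tested epithelial markers was called higher and 1 lower. Of 4 tested fibroblast and endothelial markers 1 was higher and 2 lower with palbociclib. None of either list was called with GSK3326595. Of 6 tested melanocytic markers 1 was called higher with each inhibitor and none lower. Over all genes tested 19.3% were called higher and 20.2% lower with palbociclib, and 8.58% and 10.2% with GSK3326595. All 6 markers of cycling cells (MKI67, TOP2A, CCNA2, CCNB1, BUB1 and RRM2) fell with each inhibitor, from summed levels of 1771 and 2035 CPM with DMSO to 547 and 624 CPM with palbociclib and 970.5 and 956 CPM with GSK3326595. The part of these marker lists in the lipid gene results was not tested. CPM here are counts scaled to a library of 1000000 after TMM scaling.

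Per kilobase of annotated exon, the highest levels with DMSO belonged to genes of the fatty acid arm. These were SCD, at 251 ± 9.4 CPM per kb, and FASN, at 219 ± 21.3 CPM per kb (SD, n = 2). ACLY followed at 114 ± 0.864 CPM per kb and the regulator SREBF1 at 98.3 ± 3.44 CPM per kb. The highest sterol enzyme was FDPS, at 51.7 ± 0.879 CPM per kb, and the lowest members were MYLIP at 4.53 ± 0.221 CPM per kb and TM7SF2 at 4.23 ± 1.07 CPM per kb. SREBF1 was 4th and SREBF2, at 36.8 ± 2.34 CPM per kb, was 7th of the 34. Exon lengths are unions over the GENCODE 29 basic transcripts and may differ from the annotation behind the counts.

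With palbociclib the lipid synthesis genes shifted downwards. Of the 34 members 19 were lower than with DMSO, 1 (AACS) was higher and 14 were not called, in the quasi-likelihood test of edgeR, where a call is a Benjamini-Hochberg adjusted p below 0.05. Over all 16381 genes tested, 39.5% were called, 20.2% lower and 19.3% higher, against 55.9% lower and 2.94% higher among the members. The median log2 fold change of the members was -0.41, beside -0.02 over all genes tested. In the sterol arm 10 of 20 fell, with a median of -0.36, and in the fatty acid arm 6 of 8 fell, with a median of -0.63. The difference between the arms was not tested. Both palbociclib libraries lay below both DMSO libraries for 25 of 34 members and above them for 3, beside 37.4% and 35.1% of all genes tested (72.5% in either direction). In bulk samples fewer cells of a type and less RNA per cell cannot be told apart.

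Fewer members were called with GSK3326595. Of the 34 members 9 were lower than with DMSO, 1 (TM7SF2) was higher and 24 were not called in the same edgeR test. The background was 18.8% of all genes tested, 10.2% lower and 8.58% higher, against 26.5% lower and 2.94% higher among the members. The median was -0.12 over the members and -0.0011 over all genes tested. The sterol arm had 5 lower genes of 20 (median -0.12) and the fatty acid arm 3 lower genes of 8 (median -0.26). Both GSK3326595 libraries lay below both DMSO libraries for 20 of 34 members and above them for 5, beside 29.7% and 27.6% of all genes tested (57.3% in either direction). The counts of calls rested on single libraries: 5 members were called without DMSO replicate 1, 5 without DMSO replicate 2 and 6 without GSK3326595 replicate 1. In the fatty acid arm 1 gene was called lower without DMSO replicate 1, and in the sterol arm 2 were called lower without either DMSO replicate and 3 without either palbociclib replicate or GSK3326595 replicate 1. DESeq2 and a fit of the 2 groups alone also gave 3 lower sterol genes. Both comparisons use the same DMSO libraries.

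**Figure D1:**
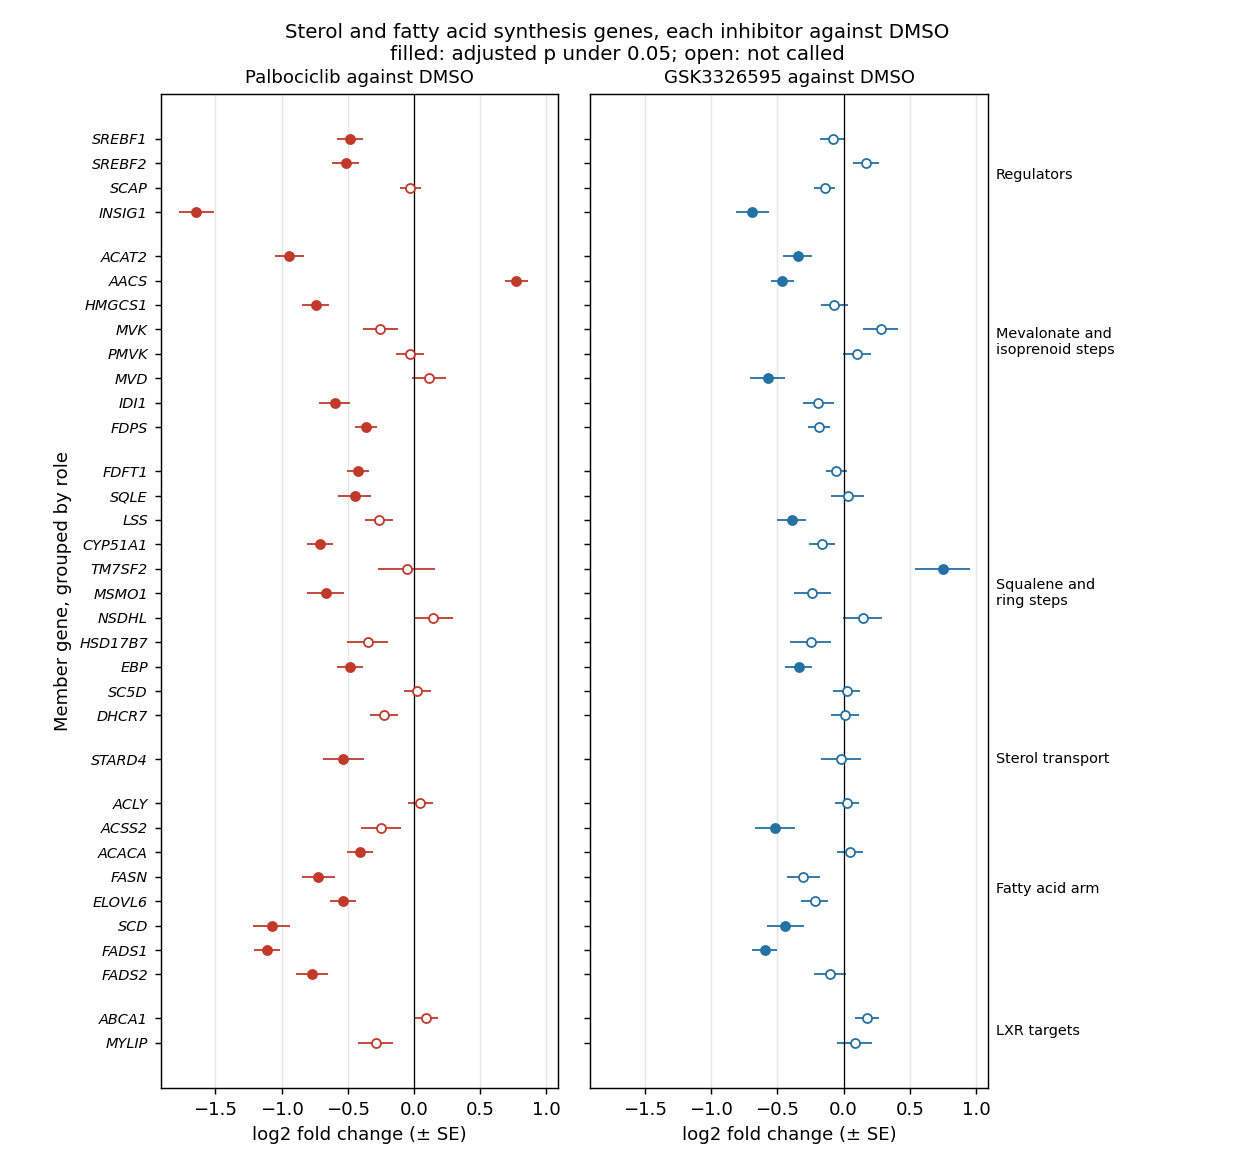
Log2 fold change of each of the 34 members, with its SE, for palbociclib (left) and GSK3326595 (right) against DMSO on a shared axis, grouped by role. Filled points are called at an adjusted p under 0.05. The palbociclib points lie mostly left of 0 and reach -1.64 (INSIG1), with AACS alone called on the right, and the GSK3326595 points lie closer to 0.

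Among the regulators, both SREBP genes fell with palbociclib and neither was called with GSK3326595. SREBF1 (Gene ID 6720; GRCh38 chromosome 17, 17811334 to 17836986) was at 453 and 431 CPM with DMSO, 338 and 294 CPM with palbociclib, and 423 and 412 CPM with GSK3326595. Both palbociclib libraries lay below the other 4. Its log2 fold change against DMSO was -0.48 ± 0.0963 (SE, adjusted p = 0.00192) with palbociclib and -0.08 ± 0.096 (SE, adjusted p = 0.597) with GSK3326595, by edgeR. The palbociclib call was lost without palbociclib replicate 2 (adjusted p = 0.0541). SREBF2 (Gene ID 6721; GRCh38 chromosome 22, 41833105 to 41907305) stood at 206 and 188 CPM with DMSO, 151 and 125 CPM with palbociclib, and 217 and 227 CPM with GSK3326595. The palbociclib libraries were again the lowest, and both GSK3326595 libraries lay above both DMSO libraries. With palbociclib the log2 fold change of SREBF2 was -0.52 ± 0.101 (SE, adjusted p = 0.00165) and with GSK3326595 0.17 ± 0.1 (SE, adjusted p = 0.269), again by edgeR.

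INSIG1, which encodes a brake on SREBP transport and is itself a classical SREBP target, had the largest fold change of the 34 members with palbociclib. INSIG1 (Gene ID 3638; GRCh38 chromosome 7, 155297878 to 155310235) was measured at 79.4 and 82.1 CPM with DMSO, 29.8 and 21.9 CPM with palbociclib, and 46.7 and 53.6 CPM with GSK3326595. The 3 groups did not overlap, with palbociclib lowest and GSK3326595 between it and DMSO. The log2 fold changes were -1.64 ± 0.133 (SE, adjusted p = 2.14e-06) with palbociclib and -0.69 ± 0.128 (SE, adjusted p = 0.00336) with GSK3326595 (edgeR). SCAP, the escort of the SREBPs, was called in neither comparison, at 158 and 162 CPM with DMSO, 160.4 and 154 CPM with palbociclib, and 145 and 145 CPM with GSK3326595. Its palbociclib libraries overlapped those of DMSO (-0.03 ± 0.0787 SE, adjusted p = 0.801), its GSK3326595 libraries lay slightly below them (-0.14 ± 0.079 SE, adjusted p = 0.232), by edgeR.

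**Figure D2:**
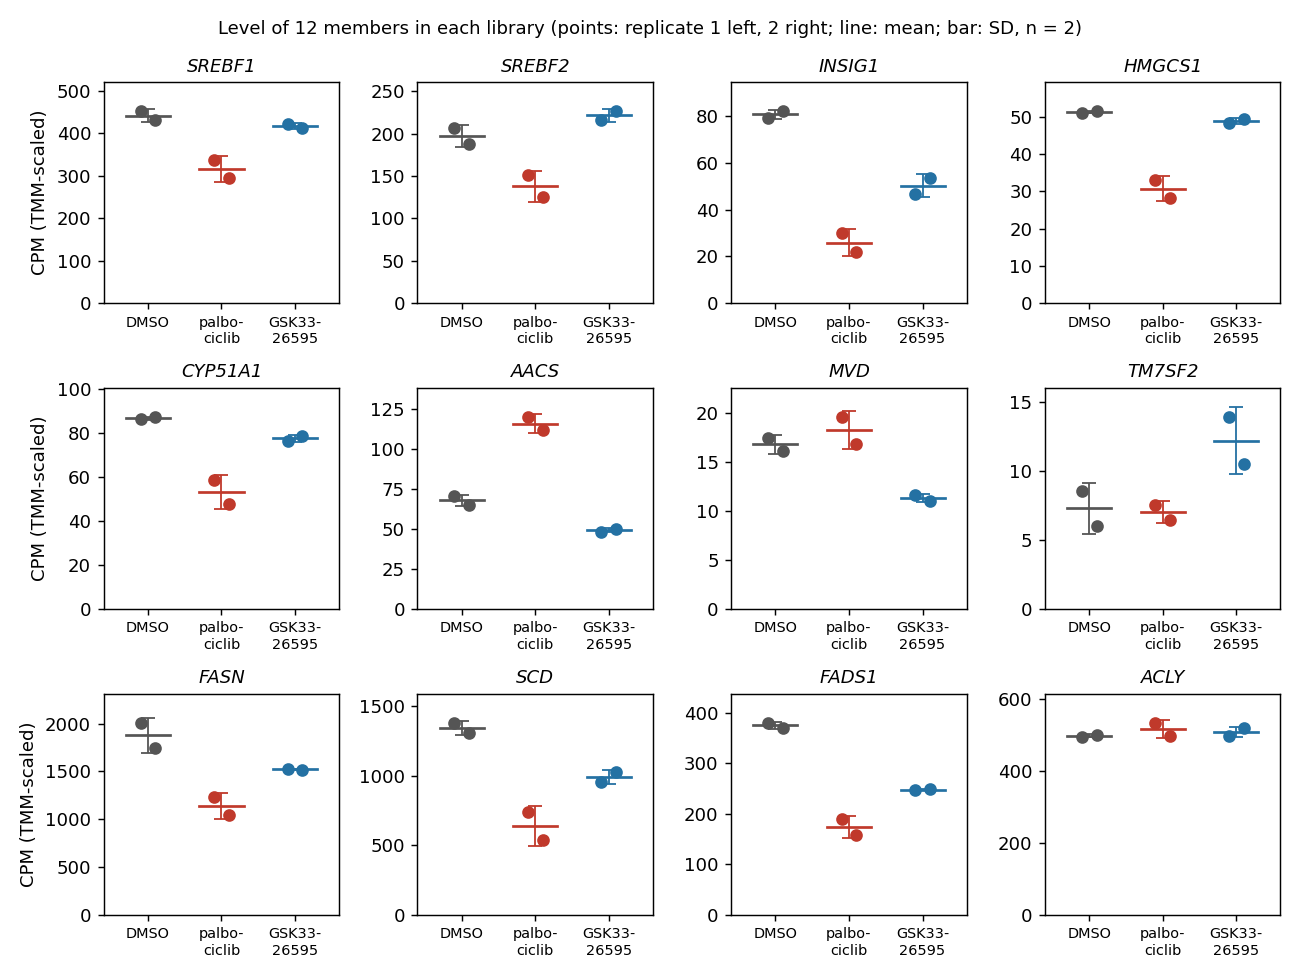
TMM-scaled CPM of 12 members in each of the 6 libraries, on linear axes from 0, with points for the replicates, a line for the group mean and a bar for the SD (n = 2). INSIG1, FADS1 and SCD step down from DMSO through GSK3326595 to palbociclib, AACS is highest with palbociclib and lowest with GSK3326595, and ACLY stays between 495 and 533 CPM.

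The first steps of the sterol arm turn acetyl-CoA into isoprenoid units. Of their 8 genes 4 (50.0%) fell with palbociclib and 1 (12.5%) rose, beside 20.2% and 19.3% of all genes tested. HMGCS1, the cytosolic HMG-CoA synthase gene (Gene ID 3157; GRCh38 chromosome 5, 43287470 to 43313412), was at 51.1 and 51.6 CPM with DMSO, 33.1 and 28.3 CPM with palbociclib, and 48.3 and 49.5 CPM with GSK3326595. The palbociclib libraries were the lowest, and the GSK3326595 libraries lay just below those of DMSO. The log2 fold change was -0.74 ± 0.103 (SE, adjusted p = 0.000149) with palbociclib, against -0.07 ± 0.101 (SE, adjusted p = 0.673) with GSK3326595 in edgeR. ACAT2, which encodes the cytosolic acetoacetyl-CoA thiolase, was at 31.7 and 33.4 CPM with DMSO, 17.1 and 16.8 CPM with palbociclib, and 23.8 and 27.4 CPM with GSK3326595. Its groups did not overlap, and it fell by both edgeR tests, with log2 fold changes of -0.94 ± 0.111 (SE, adjusted p = 4.33e-05) for palbociclib and -0.35 ± 0.109 (SE, adjusted p = 0.0448) for GSK3326595. The GSK3326595 call of ACAT2 was lost without any of DMSO replicate 1 (0.0822), DMSO replicate 2 (0.186), palbociclib replicate 1 (0.0731) or 2 (0.0744) and GSK3326595 replicate 1 (0.207), these being adjusted p, and also with DESeq2 (0.12), DESeq2 size factors (just above 0.05), no filter (0.0634) or the 2 groups alone (0.0684). On the opposite strand, exons of ACAT2 overlap those of SOD2-OT1 over 45.8%, SOD2 over 34.8% and TCP1 over 12.5% of their length, and 19.9% of the exon length of HMGCS1 and 28.9% of that of FDPS overlap antisense genes. The strand setting of the counting is not given, so the counts of these 3 genes are uncertain.

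AACS, which encodes the synthetase that activates acetoacetate for lipid synthesis, was the only member called higher with palbociclib. AACS (Gene ID 65985; GRCh38 chromosome 12, 125065435 to 125143316) was at 70.4 and 65.3 CPM with DMSO, 120.2 and 112 CPM with palbociclib, and 48.4 and 50.1 CPM with GSK3326595. It was highest with palbociclib and lowest with GSK3326595, with no overlap between any groups. Its log2 fold change was 0.77 ± 0.0849 (SE, adjusted p = 2.48e-05) with palbociclib and -0.46 ± 0.0873 (SE, adjusted p = 0.00364) with GSK3326595, and both edgeR calls were kept under each alternative run. MVD, the mevalonate diphosphate decarboxylase gene, also differed in its pattern, at 17.5 and 16.1 CPM with DMSO, 19.6 and 16.9 CPM with palbociclib, and 11.6 and 11.01 CPM with GSK3326595. MVD fell with GSK3326595, with a log2 fold change of -0.57 ± 0.134 (SE, adjusted p = 0.0117), a call lost once DMSO replicate 1 was left out (adjusted p = 0.0548), and it was at 0.12 ± 0.127 (SE, adjusted p = 0.498) with palbociclib in edgeR.

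Later in the same branch, IDI1, the isopentenyl diphosphate isomerase gene, was at 21.6 and 20.9 CPM with DMSO, 15.1 and 13.02 CPM with palbociclib, and 18.9 and 18.3 CPM with GSK3326595. It fell with palbociclib (-0.60 ± 0.12 SE, adjusted p = 0.00199) and was not called with GSK3326595 (-0.19 ± 0.119 SE, adjusted p = 0.293) by edgeR. FDPS, the farnesyl diphosphate synthase gene, fell less, from 85.1 ± 1.45 to 66.1 ± 2.6 CPM with palbociclib (SD, n = 2; log2 fold change -0.36 ± 0.0831 SE, adjusted p = 0.00445, edgeR). That call was lost once DMSO replicate 2 was left out (adjusted p = 0.0503) or palbociclib replicate 1 (0.0702). Pseudogene copies exist for FDPS, HSD17B7, IDI1, CYP51A1, AACS and SCD, and the handling of multiply aligned reads is not given in the sources used here, so their counts are uncertain to that extent. With GSK3326595 it was at 74.8 ± 3.16 CPM and was not called. The kinase genes MVK and PMVK were called in neither comparison with DMSO. MVK had log2 fold changes of -0.25 and 0.28, and PMVK of -0.03 and 0.10, for palbociclib and GSK3326595 in that order (edgeR adjusted p between 0.154 and 0.859).

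Of the 11 genes that make squalene and close, demethylate and reduce the sterol rings, 5 (45.5%) fell with palbociclib and none was called higher. The shares over all genes tested were 20.2% lower and 19.3% higher. CYP51A1, the lanosterol demethylase gene, was at 86.4 and 87.4 CPM with DMSO, 58.6 and 47.8 CPM with palbociclib, and 76.5 and 78.7 CPM with GSK3326595. The palbociclib libraries lay far below the other 4, which differed less among themselves, and the edgeR values were -0.71 ± 0.1 (SE, adjusted p = 0.000173) with palbociclib and -0.16 ± 0.0991 (SE, adjusted p = 0.28) with GSK3326595. MSMO1, a methylsterol oxidase gene, was at 26.3 and 24.6 CPM with DMSO, 17.6 and 14.5 CPM with palbociclib, and 19.1 and 24.2 CPM with GSK3326595. MSMO1 was called with palbociclib (-0.67 ± 0.14 SE, adjusted p = 0.00267) and not with GSK3326595 (-0.24 ± 0.138 SE, adjusted p = 0.264), where the replicates spread more widely and the value was -0.07 without GSK3326595 replicate 1 and -0.42 without replicate 2.

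FDFT1, the squalene synthase gene that commits the pathway to sterols, fell with palbociclib from 110.4 ± 1.12 to 82.4 ± 3.25 CPM (SD, n = 2; -0.42 ± 0.0798 SE, adjusted p = 0.00134, edgeR). SQLE, the squalene epoxidase gene, fell from 42.1 ± 2.78 to 30.9 ± 0.171 CPM (-0.45 ± 0.125 SE, adjusted p = 0.0138, edgeR), a call lost once DMSO replicate 2 was left out (adjusted p = 0.106), palbociclib replicate 1 (0.0658) or palbociclib replicate 2 (0.0744). With GSK3326595 neither was called, at -0.06 and 0.03 on the log2 scale. EBP, a sterol isomerase gene, was lower in each edgeR test, with 54.9 ± 4.94 CPM for DMSO, 39.3 ± 0.546 for palbociclib and 43.4 ± 2.54 for GSK3326595 (SD, n = 2; adjusted p = 0.00251 and 0.035). Its GSK3326595 call was lost with DESeq2 (adjusted p = 0.0694), with the 2 groups alone (0.0565), and without DMSO replicate 2 (0.237), either palbociclib replicate (0.0634 and 0.0637) or GSK3326595 replicate 1 (0.126).

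LSS and TM7SF2 were called with GSK3326595 and not with palbociclib. Compared directly, the inhibitors differed in TM7SF2 (-0.80 ± 0.206 SE, adjusted p = 0.01) and were not called different in LSS (0.13 ± 0.107 SE, adjusted p = 0.382), by edgeR. LSS, the lanosterol synthase gene, was at 96.5 and 92.4 CPM with DMSO, 87.7 and 69.7 CPM with palbociclib, and 74.7 and 69.1 CPM with GSK3326595. It fell with GSK3326595 (-0.39 ± 0.107 SE, adjusted p = 0.0246, edgeR), and palbociclib gave -0.26 ± 0.106 (SE, adjusted p = 0.0667) with widely spread replicates. A replicate block in edgeR called the palbociclib difference (-0.27, adjusted p = 0.00127). The first call was lost once DMSO replicate 1 was left out (adjusted p = 0.0883), DMSO replicate 2 (0.0618) or GSK3326595 replicate 2 (0.0786), and the palbociclib difference was called without palbociclib replicate 1 (-0.44; 0.0202), without GSK3326595 replicate 1 (0.0491) or replicate 2 (0.0379), and with the 2 groups alone (0.0417), while without palbociclib replicate 2 it was -0.10. TM7SF2, a sterol reductase gene, was at 8.59 and 5.99 CPM with DMSO, 7.57 and 6.44 CPM with palbociclib, and 13.9 and 10.5 CPM with GSK3326595. It rose with GSK3326595 (0.75 ± 0.207 SE, adjusted p = 0.0264, edgeR) and was at -0.06 with palbociclib. That rise was lost once DMSO replicate 2 was left out (adjusted p = 0.167), without GSK3326595 replicate 1 (0.0956) and with library totals as the scaling (0.059).

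The other ring enzymes were not called against DMSO. NSDHL, HSD17B7, SC5D and DHCR7, which carry out late demethylation, reduction and desaturation steps, had log2 fold changes from -0.35 (HSD17B7) to 0.15 (NSDHL) with palbociclib and from -0.25 to 0.15 with GSK3326595. SC5D was the flattest of them, at 25.5 and 24.5 CPM with DMSO, 24.7 and 26.04 CPM with palbociclib, and 25.1 and 25.7 CPM with GSK3326595. For DHCR7, which encodes the last reductase on the way to cholesterol, palbociclib gave -0.23 (edgeR adjusted p = 0.11) with libraries at 80.1 and 63.4 CPM. A replicate block in edgeR called it lower (adjusted p = 0.0105). Without palbociclib replicate 1 it was called (-0.40; 0.0292), and without replicate 2 it was -0.06. STARD4, which encodes a soluble sterol carrier, was at 34.02 and 30.8 CPM with DMSO, 26.1 and 18.7 CPM with palbociclib, and 35.5 and 28.4 CPM with GSK3326595. It fell with palbociclib (-0.53 ± 0.155 SE, adjusted p = 0.0167, edgeR), but not once DMSO replicate 1 was left out (adjusted p = 0.0666) or palbociclib replicate 2 (-0.31; 0.18), and it was at -0.02 with GSK3326595.

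In the fatty acid arm all 6 genes from ACACA onwards fell with palbociclib, and the 2 that supply acetyl-CoA were not called. ACLY, which makes cytosolic acetyl-CoA from citrate, was at 495 and 501 CPM with DMSO, 533 and 497 CPM with palbociclib, and 498 and 518 CPM with GSK3326595. All 6 libraries overlapped, and neither edgeR test called it (0.05 and 0.03). ACSS2, which makes acetyl-CoA from acetate, was at 48.7 and 39.6 CPM with DMSO, 39.1 and 35.1 CPM with palbociclib, and 36.1 and 25.5 CPM with GSK3326595. With palbociclib it was at -0.25, or -0.10 without DMSO replicate 1, and edgeR with a replicate block called it lower (-0.24, adjusted p = 0.0161). It fell with GSK3326595 (-0.52 ± 0.154 SE, adjusted p = 0.0352, edgeR). The ACSS2 call was lost once DMSO replicate 1 was left out (adjusted p = 0.166), without GSK3326595 replicate 2 (-0.29; 0.184) and with library totals (0.0817), while without GSK3326595 replicate 1 it was -0.79.

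ACACA, the acetyl-CoA carboxylase gene, was at 336 and 301 CPM with DMSO, 258 and 222 CPM with palbociclib, and 332 and 326 CPM with GSK3326595. It fell with palbociclib (-0.41 ± 0.0992 SE, adjusted p = 0.00648, edgeR), but the call was lost once DMSO replicate 1 was left out (adjusted p = 0.0584) or palbociclib replicate 2 (0.12), and it was at 0.05 with GSK3326595. FASN, which encodes fatty acid synthase (Gene ID 2194; GRCh38 chromosome 17, 82078338 to 82098236), was at 2006 and 1748 CPM with DMSO, 1236 and 1040.4 CPM with palbociclib, and 1523 and 1518 CPM with GSK3326595. Both palbociclib libraries were the lowest, and both GSK3326595 libraries lay between them and DMSO. Its log2 fold change was -0.72 ± 0.125 (SE, adjusted p = 0.000747) with palbociclib and -0.30 ± 0.124 (SE, adjusted p = 0.111) with GSK3326595 in edgeR. The GSK3326595 difference was called by DESeq2 (adjusted p = 0.0415) and by edgeR with a replicate block (0.00305). ELOVL6, an elongase for saturated and monounsaturated chains, was at 63.03 and 61.4 CPM with DMSO, 46.3 and 39.4 CPM with palbociclib, and 53.2 and 53.7 CPM with GSK3326595. ELOVL6 had the same order of groups, with -0.54 ± 0.0991 (SE, adjusted p = 0.00113) for palbociclib and -0.22 ± 0.0987 (SE, adjusted p = 0.144) for GSK3326595 (edgeR).

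The 3 desaturase genes gave the largest falls of the fatty acid arm with palbociclib. SCD, the stearoyl-CoA desaturase gene (Gene ID 6319; GRCh38 chromosome 10, 100347233 to 100364826), was at 1379.6 and 1308 CPM with DMSO, 742 and 535 CPM with palbociclib, and 955 and 1026 CPM with GSK3326595. The groups did not overlap, and the edgeR values were -1.07 ± 0.141 (SE, adjusted p = 9.94e-05) with palbociclib and -0.44 ± 0.14 (SE, adjusted p = 0.0459) with GSK3326595. The GSK3326595 call of SCD was lost with DESeq2 size factors (adjusted p = 0.0507) and without DMSO replicate 1 (0.137), DMSO replicate 2 (0.0945) or GSK3326595 replicate 1 (0.0911). FADS1, a front-end desaturase gene for polyunsaturated fatty acids (Gene ID 3992; GRCh38 chromosome 11, 61799627 to 61817003), was at 379.9 and 370.4 CPM with DMSO, 189 and 158 CPM with palbociclib, and 248 and 249 CPM with GSK3326595. Its log2 fold change was -1.11 ± 0.0976 (SE, adjusted p = 4.27e-06) with palbociclib and -0.60 ± 0.0967 (SE, adjusted p = 0.00143) with GSK3326595 (edgeR), and both calls were kept under each alternative run. FADS2, the desaturase gene that lies head to head with FADS1 on chromosome 11, was at 31.5 and 35.3 CPM with DMSO, 21.2 and 17.9 CPM with palbociclib, and 33.05 and 29.2 CPM with GSK3326595. FADS2 fell with palbociclib (-0.77 ± 0.122 SE, adjusted p = 0.000395) and was not called with GSK3326595 (-0.10 ± 0.12 SE, adjusted p = 0.596), its libraries there overlapping those of DMSO. The exons of FADS1 and FADS2 overlap on opposite strands over 142 bases, 1.8% of FADS1 and 2.85% of FADS2.

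Neither LXR target was called against DMSO. ABCA1, which encodes the exporter that loads cholesterol onto apolipoproteins, was at 132 and 127 CPM with DMSO, 139.9 and 135 CPM with palbociclib, and 134 and 158 CPM with GSK3326595. Its edgeR values were 0.09 ± 0.092 (SE, adjusted p = 0.462) with palbociclib and 0.18 ± 0.0922 (SE, adjusted p = 0.201) with GSK3326595. MYLIP, which encodes a ubiquitin ligase for lipoprotein receptors, was at 14.2 and 13.3 CPM with DMSO, 11.8 and 10.7 CPM with palbociclib, and 15.1 and 14.04 CPM with GSK3326595. Palbociclib gave -0.29 ± 0.133 (SE, adjusted p = 0.104) and GSK3326595 0.08 ± 0.132 (SE, adjusted p = 0.705), by edgeR.

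Palbociclib and GSK3326595 were then compared with each other directly, in a contrast that does not involve the DMSO level. Of the 34 members 20 were lower with palbociclib than with GSK3326595, 2 (AACS and MVD) were higher and 12 were not called by edgeR. Over all genes tested 34.8% were called, 18.2% lower and 16.6% higher, against 58.8% lower and 5.88% higher among the members. The median was -0.30 in the sterol arm, where 10 of 20 were lower, and -0.44 in the fatty acid arm, where 6 of 8 were lower, beside -0.03 over all genes tested. Both palbociclib libraries lay below both GSK3326595 libraries for 24 of 34 members and above them for 3, beside 35.7% and 31.8% of all genes tested (67.4% in either direction). Without palbociclib replicate 2 the 22 called members became 9, with 3 lower in the sterol arm and 2 in the fatty acid arm.

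AACS showed the largest separation of any member between the inhibitors, with a log2 fold change of 1.24 ± 0.0867 (SE, adjusted p = 4.4e-06) by edgeR. MVD was higher with palbociclib, at 0.69 ± 0.132 (SE, adjusted p = 0.00189). INSIG1 was lower, at -0.96 ± 0.133 (SE, adjusted p = 0.000241), as were SREBF2, at -0.68 ± 0.101 (SE, adjusted p = 0.000342), and HMGCS1, at -0.67 ± 0.103 (SE, adjusted p = 0.000454). FADS2 followed at -0.67 ± 0.123 (SE, adjusted p = 0.00144) and CYP51A1 at -0.55 ± 0.101 (SE, adjusted p = 0.00148). These 7 genes, together with ACAT2 (-0.60) and FADS1 (-0.52), kept their calls under each alternative run.

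The remaining calls between the inhibitors each failed in some alternative. SREBF1 (-0.40), FDFT1 (-0.37), ACACA (-0.45), FASN (-0.42) and SCD (-0.63) were lost without palbociclib replicate 2, at edgeR adjusted p of 0.133, 0.0705, 0.0838, 0.257 and 0.0854, with SCD then at -0.41. MVK (-0.53) was lost without palbociclib replicate 2 (0.086) or GSK3326595 replicate 2 (0.0516), and TM7SF2 (-0.80) without palbociclib replicate 2 (0.0834) or GSK3326595 replicate 1 (0.0515). SQLE (-0.48) was lost without either palbociclib replicate (0.0595 and 0.0648) or GSK3326595 replicate 2 (-0.27; 0.111). STARD4 (-0.51) was lost without palbociclib replicate 2 (-0.29; 0.227) or GSK3326595 replicate 1 (-0.33; 0.126) and with library totals (0.0559). IDI1 (-0.41) was lost with DESeq2 (0.0704), without palbociclib replicate 2 (0.199) or GSK3326595 replicate 1 (0.0714), and MSMO1 (-0.43) with DESeq2 (0.0668), without palbociclib replicate 2 (0.257) or GSK3326595 replicate 2 (-0.25; 0.249). ELOVL6 (-0.32) was lost with DESeq2 (0.0607) and without any library but palbociclib replicate 1, at 0.0503 to 0.287, the last with palbociclib replicate 2 left out (-0.20). MYLIP (-0.37; adjusted p = 0.047) was lost without any 1 of the 6 libraries, at 0.0622 to 0.263, and with DESeq2 (0.149), its size factors (0.0542), library totals (0.0852), no filter (0.0523) or the 2 groups alone (0.0746).

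SCAP, PMVK, FDPS, LSS, NSDHL, HSD17B7, EBP, SC5D, DHCR7, ACLY, ACSS2 and ABCA1 were not called between the inhibitors. Their log2 differences lay between -0.24 (DHCR7) and 0.27 (ACSS2). ACSS2 was called higher with palbociclib once GSK3326595 replicate 1 was left out (0.55; edgeR adjusted p = 0.00648), and was at 0.04 without GSK3326595 replicate 2. DHCR7 was called lower without palbociclib replicate 1 (-0.41; 0.0305), and was at -0.08 without replicate 2.

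**Figure D3:**
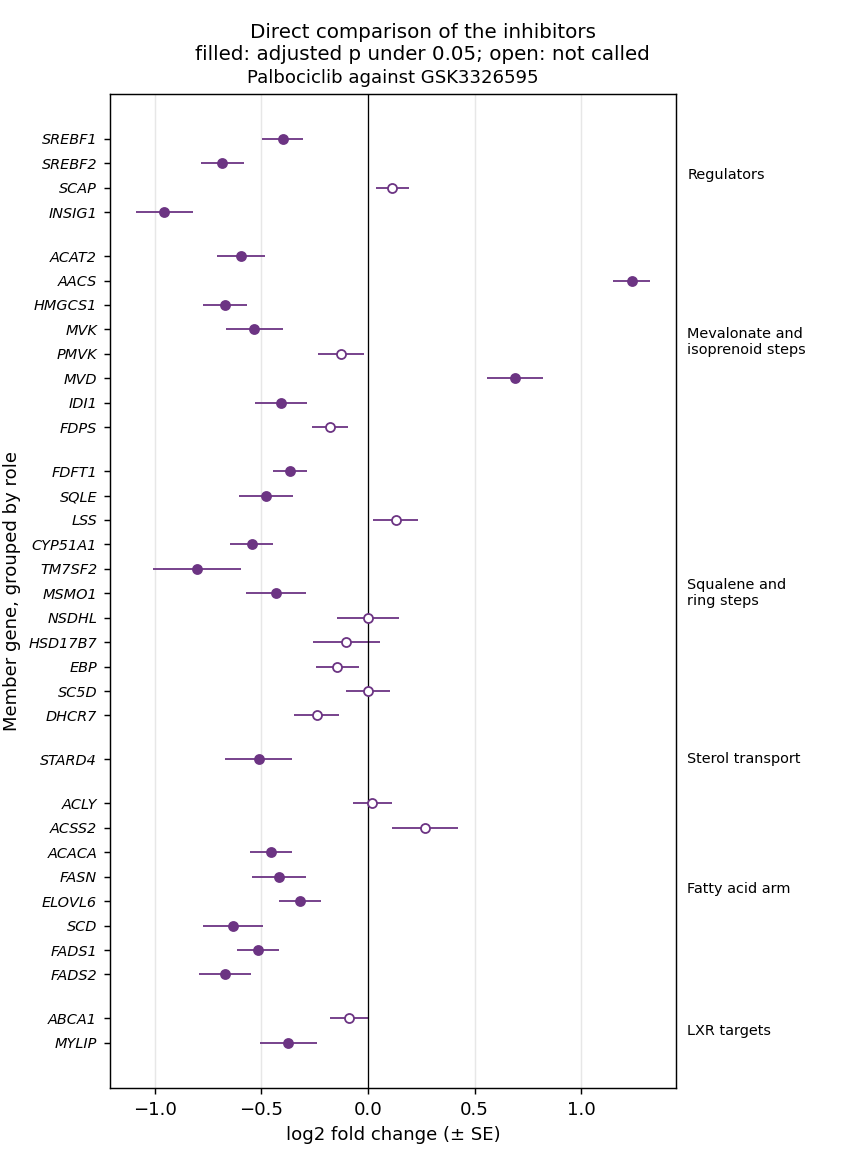
Log2 fold change of each member in palbociclib against GSK3326595, with its SE, grouped by role, with filled points called at an adjusted p under 0.05. Of the filled points 20 lie left of 0, and AACS (1.24) and MVD (0.69) lie to the right.

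Read library by library, both arms were lower in each palbociclib library than in either DMSO library. The median of the 20 sterol genes, as log2(CPM + 0.5) minus the mean of the 2 DMSO libraries, was -0.31 and -0.42 with palbociclib and -0.15 and -0.11 with GSK3326595. For the 8 fatty acid genes it was -0.51 and -0.75 with palbociclib and -0.25 and -0.26 with GSK3326595. The fatty acid arm was thus the lower of the arms in all 4 treated libraries, and in both arms the GSK3326595 libraries lay between DMSO and palbociclib. Summed over the arm, fatty acid transcripts made up 4740.2 and 4365 CPM with DMSO, 3065 and 2546 CPM with palbociclib, and 3677 and 3746 CPM with GSK3326595. FASN and SCD made up most of the sum in each library, so it mainly follows those genes. The sterol sums were 913 and 907, 794 and 721, and 811 and 839.7 CPM in the same order.

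The palbociclib replicates were not equally low. In 29 of the 34 members replicate 2 lay below replicate 1, with a median log2 ratio of -0.21, while 50.7% of all genes tested had that order. Among DMSO replicates 20 of 34 members had replicate 2 lower (median log2 ratio -0.04), and among GSK3326595 replicates 14 of 34 (0.04). The labels give no difference in handling between these replicates.

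**Figure D4:**
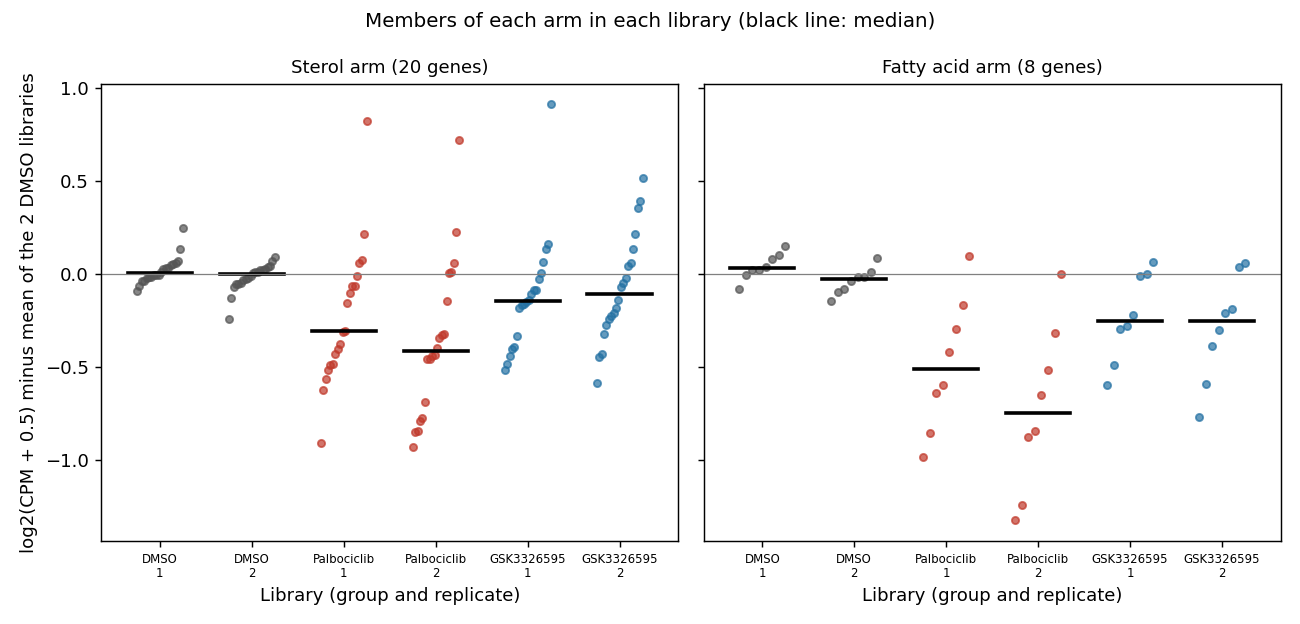
Each point is 1 member of the sterol arm (left) or the fatty acid arm (right) in 1 library, as log2(CPM + 0.5) minus the mean of the 2 DMSO libraries, and the black line is the median over the arm. The palbociclib medians are the lowest in both panels, with replicate 2 below replicate 1, and the GSK3326595 medians lie between them and DMSO.

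Other lipid genes, 97 in all in 7 lists, were called in both directions. With palbociclib 23 of the 91 that passed the filter (25.3%) rose and 17 (18.7%) fell, near the 19.3% and 20.2% of all genes tested, with a median log2 fold change of 0.06. With GSK3326595 9 (9.89%) rose and 15 (16.5%) fell, beside 8.58% and 10.2% of all genes tested, with a median of -0.02. The counts of the single lists below stand against these same backgrounds and rest on few genes. Among partners of SREBP processing 1 of 8 rose and 1 fell with palbociclib: MBTPS1, the protease that makes the first SREBP cut (0.35), and the ubiquitin ligase gene RNF145 (-0.40). With GSK3326595 MBTPS1 fell (-0.35), as did UBE2G2, a ubiquitin-conjugating enzyme gene (-0.56), and no other of the 8 was called. Palbociclib calls that were lost under an alternative, with the adjusted p then reached, were those of MBTPS1 (0.0732 on dropping DMSO replicate 1 and 0.0759 on dropping palbociclib replicate 1) and RNF145 (0.0649 on dropping DMSO replicate 2 and 0.0536 on dropping palbociclib replicate 1). GSK3326595 calls that were lost, again with the adjusted p reached, were those of MBTPS1 (0.117 on dropping DMSO replicate 2 and 0.0735 on dropping GSK3326595 replicate 1).

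In the list of other sterol enzymes and carriers, 3 of 15 rose and 4 fell with palbociclib, and 1 rose and 2 fell with GSK3326595. LBR, a lamin-binding protein with sterol reductase activity, fell with palbociclib from 176 ± 16.3 to 74.9 ± 6.3 CPM (SD, n = 2; adjusted p = 1.77e-06) and with GSK3326595 had a log2 fold change of -0.57 (edgeR). TMEM97, a sterol-responsive gene, fell with palbociclib from 38.99 ± 2.06 to 20.3 ± 0.911 CPM (SD, n = 2; adjusted p = 2.38e-05) in edgeR. The sterol transfer genes GRAMD1B (0.42) and OSBP (0.38) rose with palbociclib, and with GSK3326595 GRAMD1B rose (0.35) and OSBPL8 fell (-0.41). Among users of the isoprenoid branch 2 of 10 rose and 2 fell with palbociclib, with COQ2, of ubiquinone synthesis (-0.79), and PDSS1 (-0.47) lower and DHDDS (0.37) among those higher. With GSK3326595 3 fell and none was called higher by edgeR, led by GGPS1, the geranylgeranyl diphosphate synthase gene (-0.78), and PGGT1B (-0.44). Palbociclib calls that were lost under an alternative, with the adjusted p then reached, were those of DHDDS (0.0528 on dropping DMSO replicate 1 and 0.0599 on dropping palbociclib replicate 2) and PDSS1 (0.118 on dropping DMSO replicate 2, 0.0657 on dropping palbociclib replicate 1 and 0.0538 on dropping palbociclib replicate 2). GSK3326595 calls that were lost, again with the adjusted p reached, were those of GRAMD1B (0.191 on dropping DMSO replicate 1 and 0.0719 on dropping GSK3326595 replicate 2) and OSBPL8 (0.0628 on dropping DMSO replicate 2). Also lost was the call of PGGT1B (0.0518 on dropping DMSO replicate 2 and 0.0848 on dropping GSK3326595 replicate 2).

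Other genes of fatty acid synthesis and elongation moved both ways, with 4 of 19 higher and 6 lower under palbociclib and 2 higher and 1 lower under GSK3326595. MID1IP1, which encodes an activator of acetyl-CoA carboxylase, fell with palbociclib from 32.7 ± 3.17 to 14.2 ± 0.733 CPM (SD, n = 2; adjusted p = 7.62e-06) in edgeR. HACD3 fell (-0.37) and ELOVL1, an elongase for very long chains (0.59), and ME1, the cytosolic malic enzyme gene (0.38), rose. With GSK3326595 FADS3 (0.51) and OXSM (0.43) rose and HACD2 (-0.53) fell. In fatty acid activation and glycerolipid synthesis 5 of 16 rose and 3 fell with palbociclib, among them PCYT2 (0.84) and the acyl-CoA synthetase gene ACSL1 (0.66) higher and ACSL3 (-0.51) and GPAM (-0.43) lower. With GSK3326595 3 rose and 3 fell, with LPIN3 (0.86) and ACSL5 (0.53) higher and ACSL3 (-0.46) and DGAT1 (-0.39) lower. Palbociclib calls that were lost under an alternative, with the adjusted p then reached, were those of ME1 (0.0817 on dropping DMSO replicate 1 and 0.0698 on dropping palbociclib replicate 1) and HACD3 (0.0644 on dropping DMSO replicate 2 and 0.0754 on dropping palbociclib replicate 2). Also lost was the call of GPAM (0.0593 on dropping palbociclib replicate 2). GSK3326595 calls that were lost, again with the adjusted p reached, were those of FADS3 (0.0638 on dropping DMSO replicate 2) and OXSM (0.079 with DESeq2, 0.0662 with library totals, 0.0625 with the 2 groups alone, 0.143 on dropping DMSO replicate 1, 0.114 on dropping DMSO replicate 2, 0.0589 on dropping palbociclib replicate 1, 0.0604 on dropping palbociclib replicate 2 and 0.164 on dropping GSK3326595 replicate 1). Also lost were the calls of HACD2 (0.102 on dropping DMSO replicate 2) and ACSL5 (0.0834 on dropping DMSO replicate 2 and 0.0691 on dropping GSK3326595 replicate 2). Also lost were the calls of ACSL3 (0.0639 on dropping DMSO replicate 2) and DGAT1 (0.064 with DESeq2, 0.0879 with library totals, 0.0649 with the 2 groups alone, 0.11 on dropping DMSO replicate 1, 0.0933 on dropping DMSO replicate 2, 0.0608 on dropping palbociclib replicate 1, 0.0621 on dropping palbociclib replicate 2 and 0.274 on dropping GSK3326595 replicate 2).

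Of 16 fatty acid oxidation genes 7 (43.8%) rose and 1 (6.25%) fell with palbociclib, beside 19.3% and 20.2% of all genes tested, with a median of 0.22. SLC25A20, the mitochondrial acylcarnitine carrier gene, rose from 16.8 ± 0.476 to 34.5 ± 1.71 CPM (SD, n = 2; adjusted p = 3.59e-05) in edgeR. HADH, a mitochondrial beta-oxidation dehydrogenase gene, fell from 38.1 ± 2.37 to 18.3 ± 1 CPM (SD, n = 2; adjusted p = 1.16e-05). With GSK3326595 2 of the 16 rose and 4 fell, beside 8.58% and 10.2% of all genes (median -0.10), with SLC25A20 (0.73) and PPARGC1A (0.68) higher and ACADVL (-0.56) and ECI1 (-0.42) lower. The list of LXR and ChREBP regulators and targets also holds related transporter genes. Of its 7 tested genes 1 rose with palbociclib, the transporter gene ABCA7 (1.14), and 1 with GSK3326595, MLX (0.32). Whether ABCA7 responds to LXR or ChREBP was not tested. GSK3326595 calls that were lost, again with the adjusted p reached, were those of MLX (0.0579 with DESeq2, 0.067 with the 2 groups alone, 0.239 on dropping DMSO replicate 1, 0.102 on dropping DMSO replicate 2, 0.0704 on dropping palbociclib replicate 1, 0.0713 on dropping palbociclib replicate 2 and 0.268 on dropping GSK3326595 replicate 2) and PPARGC1A (0.0938 on dropping DMSO replicate 2 and 0.0563 on dropping GSK3326595 replicate 2). Also lost was the call of ECI1 (0.0747 on dropping DMSO replicate 2).

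**Figure D5:**
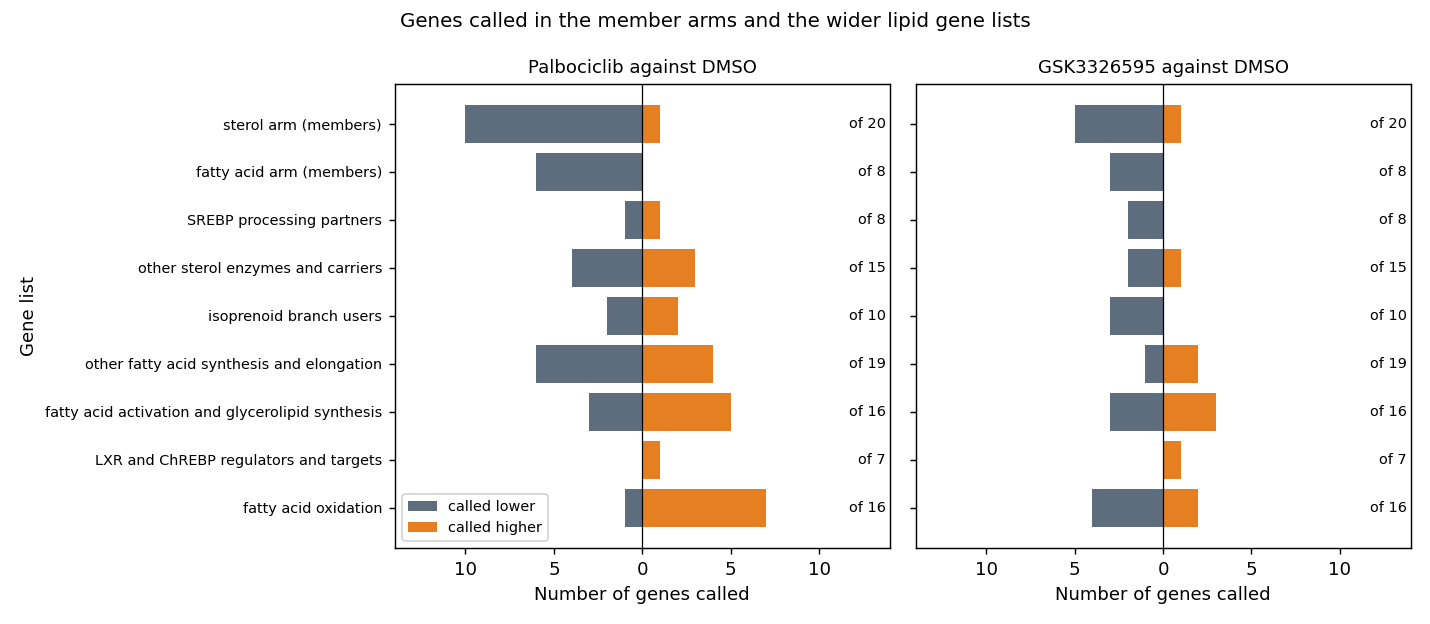
Number of genes called higher (right of 0) and lower (left of 0) than DMSO in the sterol and fatty acid arms and in the 7 wider lipid lists, with the number tested at the right edge of each row. The member arms extend mainly to the left with palbociclib (10 of 20 and 6 of 8), and fatty acid oxidation extends to the right (7 of 16).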

How the data were processed

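Total RNA from A375 cells was depleted of ribosomal RNA and sequenced from TruSeq RNA v2 libraries, per the labels' protocols. The submitters' processing notes name the genome build hg38, featureCounts 1.6.2, HISAT2, cutadapt 1.7, CASAVA 1.8.2 and limma. Their annotation, strand setting and treatment of multiply aligned reads were not given in the sources used here. The authors deposited 1 table of raw counts per library, with 28395 Gene IDs, of which 27745 were matched to a symbol. The unmatched IDs held 0.2332% to 0.5081% of the counts.

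The members and the wider lists were chosen with earlier results of these data known. All 6 libraries were fitted in edgeR 4.0.16 (R 4.3.3) by the quasi-likelihood test, with TMM scaling, filterByExpr at a minimum count of 10, 3 residual degrees of freedom and a common biological coefficient of variation of 0.0839. P-values were adjusted over the 16381 genes tested by the Benjamini-Hochberg method, and a call is an adjusted p under 0.05. The SE of a log2 fold change is its size divided by the square root of F. Counts of replicates differed by more than sampling noise in every group (chi-square per degree of freedom 8.09, 5.38 and 10.2 for DMSO, palbociclib and GSK3326595).

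Values in every library are given for the regulators, the LXR targets, the 6 members of smallest p in each comparison and every called member changed by at least 1.5-fold. In the wider lists the 2 genes of smallest p in each direction are named, except 2 genes that are not reported here. Gene positions are RefSeq's on GRCh38, and promoters are RefSeq's on GRCh38.p14. Exon lengths and exon overlaps are those of GENCODE 29. Alternatives were DESeq2 1.42.0, its size factors in edgeR, library totals, no filter, a filter at 1 CPM in 2 libraries, the 2 groups alone, a replicate block and each library left out.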

Additional observations from a re-analysis of the deposited data

How the results depend on the processing

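The alternatives other than leaving out a single library, among them the fit of the 2 groups alone, gave 714 log2 fold changes of members. Of these 679 kept their direction and side of the threshold, 18 lost and 15 gained a call and 2 changed sign. Of 612 with a library left out 26 changed sign, and calls were lost more often. The changes of sign were all in members that were not called. With a library left out, members called against DMSO ranged from 16 to 21 with palbociclib and from 5 to 8 with GSK3326595, and between the inhibitors from 9 to 21. Over all genes tested 6470 were called with palbociclib (4007 to 7259 with a library left out, the lowest without palbociclib replicate 2 and 4216 without replicate 1), 3081 with GSK3326595 (1765 to 3230) and 5707 between them (3312 to 5542). Lower sterol arm genes with GSK3326595 ranged from 2 to 4, and were 3 with DESeq2 and 3 with the 2 groups alone, and lower fatty acid arm genes from 1 to 3. Between the inhibitors the sterol arm had 3 to 10 and the fatty acid arm 2 to 6 lower genes, and the sterol median ran from -0.41 to -0.23. The cause of these losses was not tested. For palbociclib against DMSO the ranges of members that changed sign were -0.0553 to 0.0112 for SCAP, -0.0639 to 0.0127 for PMVK, -0.275 to 0.221 for TM7SF2 and -0.0116 to 0.0635 for SC5D. For GSK3326595 against DMSO they were -0.175 to 0.211 for SQLE, -0.113 to 0.362 for NSDHL, -0.00704 to 0.0407 for SC5D, -0.0327 to 0.0573 for DHCR7, -0.189 to 0.13 for STARD4, -0.00464 to 0.0573 for ACLY and -0.0314 to 0.103 for ACACA. Between the inhibitors they were -0.0432 to 0.288 for LSS, -0.206 to 0.258 for NSDHL, -0.188 to 0.00384 for HSD17B7, -0.0348 to 0.0403 for SC5D, -0.027 to 0.0711 for ACLY and -0.191 to 0.037 for ABCA1. With no filter on low counts the difference between the inhibitors was -0.00588 for NSDHL and -0.0043 for SC5D. The replicate number was also fitted as a block. The deviations of same-numbered libraries from their group means correlated at 0.179, 0.341 and 0.14 in the 3 pairs of groups, but each comparison holds only 2 pairs and no label says what a number shares. With the replicate block 25 members were called with palbociclib, 15 with GSK3326595 and 25 between the inhibitors, and over all genes 8716, 5769 and 7913. The block called 5 lower fatty acid arm genes with GSK3326595, against 3 without it. Members that gained a call with the block were LSS, HSD17B7, DHCR7, ACSS2 and MYLIP with palbociclib. With GSK3326595 they were MVK, FDPS, FASN, ELOVL6 and ABCA1, and between the inhibitors FDPS, DHCR7 and ACSS2. No member had fewer than 115 counts in a library. The 2 libraries a group and the spread between the palbociclib replicates limit the precision, and a single cell line bounds what was measured.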
